A study of Homo sapiens with 4 samples.

Results

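The mitochondrial ribosomal protein genes were taken by symbol from a table of read counts, as MRPL followed by digits or MRPS followed by digits with an optional A, B or C. The rule found 77 of the 27011 genes in the table. RNA was sequenced from HEK293T cells, an established human embryonic kidney line, and from a Helz-null line, in which Cas9 had cut the helz gene of these cells, to ask how loss of HELZ alters the transcriptome. Each genotype had 2 libraries, described as biological replicates, grown without further treatment. All Helz-null libraries came from 1 line, so the loss of HELZ and other properties of that line cannot be told apart. The WT libraries held 65005666 (replicate 1) and 42342295 (replicate 2) counts, and the Helz-null libraries 41745401 (replicate 1) and 70464140 (replicate 2). Levels are given as normalized CPM, which are counts per 1000000 counts of the tested genes (98.7% to 98.8% of each total), after multiplying that sum by a TMM factor of edgeR. On this scale a floor of 3 counts corresponded to 0.0473, 0.0725, 0.0719 and 0.0426 CPM in the same order, and it covers counting error only.

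Mitochondria translate the few proteins encoded by their own DNA, all of them parts of the respiratory chain and ATP synthase, on ribosomes of their own. The ribosomal RNAs come from mitochondrial DNA, whereas every protein of the large and small subunits is encoded in the nucleus, made in the cytosol and imported. Some of these proteins have counterparts in bacterial ribosomes and others are found only in mitochondria.

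HELZ, the edited gene, was examined first as a check of the labels. The gene spans 65066560 to 65242105 of chromosome 17 (GRCh37, minus strand). Its normalized CPM were 98.8 and 102.9 in WT cells and 36.6 and 37.5 in Helz-null cells. Both Helz-null libraries were far below both WT libraries, in the direction their labels give. The log2 fold change of Helz-null over WT (log2FC) was -1.44 with a standard error (SE) of 0.042, and the level was 36.8% of WT (edgeR quasi-likelihood test, Benjamini-Hochberg adjusted p = 2.00e-29). Counts over the whole gene do not measure HELZ protein.

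Markers of the cell line were read as FPKM, which are CPM divided by the gene width in kilobases. VIM lay between 447.4 and 497.6 FPKM, KRT18 between 37.5 and 42.5, and NEFL between 27.0 and 28.7 across the 4 libraries. In Helz-null cells KRT8 was lower (log2FC -0.98) and NEFM higher (log2FC 0.89), and VIM (-0.14) and KRT18 (-0.16) were lower by less. PAX2 was below the filter on low levels, at 1.21 to 1.65 FPKM. Of the 5 markers of blood, liver, endothelium, myeloid cells and fibroblasts, PTPRC, ALB, CDH5 and LYZ did not exceed 0.156 FPKM in any library, and PTPRC was at 0 in 3 of the 4 libraries. The most abundant was COL3A1, at 0.409 to 0.620 FPKM. Their summed level was 0.602 and 0.701 FPKM in WT and 0.458 and 0.514 FPKM in Helz-null cells, and its part in the results was not tested.

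All 77 members passed the filter, a mean of more than 2 FPKM over the 4 libraries, which left 11310 genes for testing. A gene was called at an adjusted p under 0.005. In Helz-null cells 20 members were called lower (26.0% of 77) and 4 were called higher (5.19%), against 15.0% lower and 13.5% higher over all tested genes. Both Helz-null libraries lay below both WT libraries for 42 members and above them for 8, and the groups overlapped for 27. Over all tested genes the groups were separate in the lower direction for 35.2% and in the higher direction for 34.4%. The median log2FC of the members was -0.055, with quartiles of -0.15 and 0.0057, and that of all tested genes was -0.0016. This median stayed below 0 under every scaling tried, at -0.053 with RLE factors, -0.041 with the upper quartile and -0.022 with library size only. In these bulk libraries, fewer cells expressing a gene and less RNA per cell cannot be told apart.

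The changes were small. MRPL55 was the 1 member with an absolute log2FC above 0.5, and the median absolute log2FC of the members was 0.075, against 0.11 for all tested genes. The median absolute log2 ratio between replicates was 0.037 in WT and 0.045 in Helz-null cells. The smallest change that was called was that of MRPS34, at -0.13, and the largest that was not called was that of MRPL36, at -0.17 (edgeR adjusted p = 0.0178). MRPL36 is named here because of its value. Replicates differed most for MRPL21 in WT (log2 ratio 0.22), also chosen after its values were seen, and its groups overlapped.

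Single libraries and the choice of tool moved these counts. Without Helz-null replicate 1, 11 members were called lower. The number called higher was 1 without WT replicate 1 and 0 without Helz-null replicate 1 or without Helz-null replicate 2, where edgeR gave 5 and 6 members at an unadjusted p under 0.05. DESeq2 called 12 members lower and 0 higher, with 5 higher at an unadjusted p under 0.05. Over all tested genes DESeq2 also called fewer than edgeR, with 1279 lower and 1087 higher. With library size only, 61.4% of all calls were higher, against 47.3% with TMM, and 12 members were called lower and 5 higher. The scaling also moved the calls over all tested genes, from 1695 lower and 1522 higher with TMM to 1306 and 2075 with library size only and 1494 and 1692 with the upper quartile. MRPL20, MRPL27, MRPL50, MRPS10, MRPS18B, MRPS27, MRPS30 and MRPS34 lost their calls with DESeq2 and also with library size only. In every fit with a library left out, 1 group has 1 library, which is assumed to vary like the other group. Fewer of all tested genes were called in each of these fits too, in both directions. The 6 members called lower with each library left out in turn were MRPL1, MRPL12, MRPL19, MRPL55, MRPS11 and MRPS25.

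**Figure D1:**
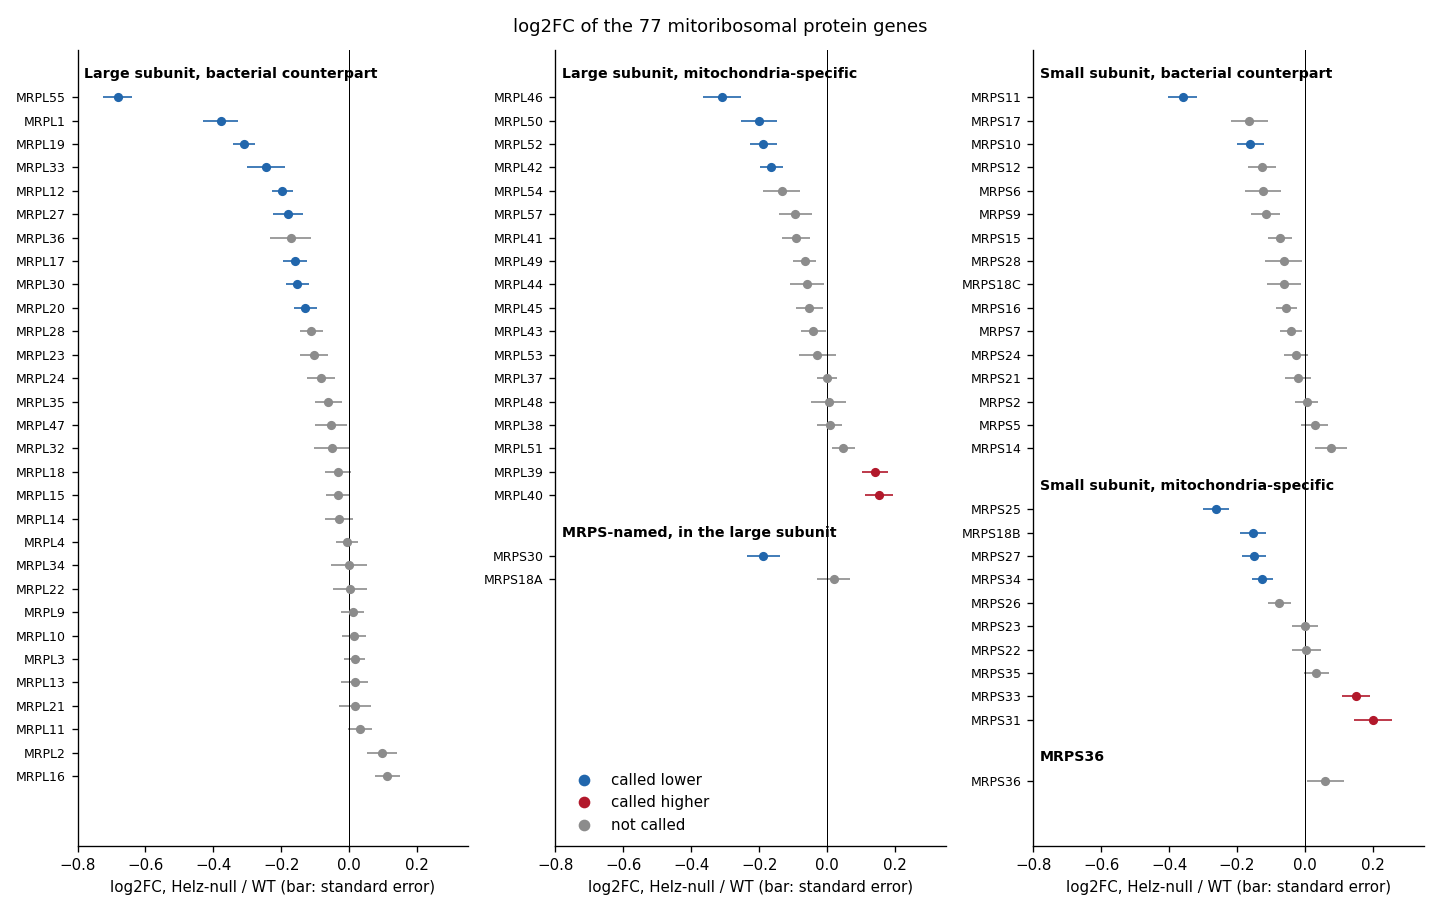
Each point is the log2FC of 1 member in Helz-null over WT cells (x axis, bar: SE of the fit to 2 libraries a group), grouped by role and coloured by call. Most points lie between -0.2 and 0.2, with MRPL55 apart at -0.68.

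The large subunit proteins with a bacterial counterpart held 30 members, of which 9 were called lower (30%, against 15.0% of all tested genes) and 0 higher by edgeR. At an unadjusted p under 0.05 edgeR gave 13 lower and 2 higher, and DESeq2 called 0 higher. The median log2FC of this group was -0.053. MRPL55 had 74.9 and 76.3 CPM in WT and 48.6 and 45.8 CPM in Helz-null cells. It was the member with the largest change, and its groups did not overlap. Its level fell to 62.5% of WT (log2FC -0.68, SE 0.044, edgeR adjusted p = 3.93e-17). On chromosome 1, MRPL55 spans 228294380 to 228297013 (minus strand). The 20 tested genes nearest to it had a median log2FC of -0.64, and the part of the region in this change was not tested.

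MRPL1 belongs to the stalk beside the site where transfer RNAs leave the ribosome. It had 43.4 and 41.9 CPM in WT and 32.3 and 33.4 CPM in Helz-null cells. Both Helz-null values were below both WT values, by more than replicates differed. MRPL1 reached 76.9% of WT (log2FC -0.38, SE 0.053, edgeR adjusted p = 9.36e-08). The gene spans 78783984 to 78873939 on the plus strand of chromosome 4, and the median log2FC of its 20 nearest tested genes was -0.036. For MRPL19, whose bacterial counterpart sits at the interface of the subunits, the CPM were 160.8 and 162.4 in WT and 130.8 and 130.0 in Helz-null cells. The replicates were close to each other and the groups were well apart. Its log2FC was -0.31 (SE 0.032, edgeR adjusted p = 7.67e-11), at 80.7% of WT. Its position is 75873909 to 75917977 of chromosome 2 (plus strand), among genes with a median log2FC of -0.027.

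The other called members of this group fell less. MRPL33 had a log2FC of -0.24. MRPL12, part of the stalk that recruits translation factors, had a log2FC of -0.20. MRPL27, which in bacteria reaches toward the centre where peptide bonds form, had a log2FC of -0.18. MRPL17 was at -0.16 and MRPL30 at -0.15. MRPL20, whose bacterial counterpart acts early in assembly of the large subunit, was at -0.13. Each of these except MRPL12 lost its call when Helz-null replicate 1 was left out, with log2FC of -0.20 for MRPL33, -0.12 for MRPL27, -0.15 for MRPL17, -0.15 for MRPL30 and -0.12 for MRPL20. MRPL17 (-0.13) and MRPL27 (-0.11) also lost it without WT replicate 1, and MRPL20 (-0.14) without Helz-null replicate 2.

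Of the 18 large subunit proteins found only in mitochondria, 4 were called lower (22.2%, against 15.0% of all tested genes). Another 2 were called higher (11.1%, against 13.5%), and the median log2FC of the 18 was -0.056. MRPL46 had 44.7 and 39.6 CPM in WT and 34.7 and 33.8 CPM in Helz-null cells. The WT replicates were spread more widely than those of MRPL55, MRPL1 and MRPL19, and the lower of them was still above both Helz-null values. Its log2FC was -0.31 (SE 0.055, edgeR adjusted p = 1.23e-05), at 81.2% of WT. Without WT replicate 1 the log2FC was -0.21 and the call was lost. MRPL50 was lower with a log2FC of -0.20, MRPL52 with -0.19 and MRPL42 with -0.16. These calls were lost without Helz-null replicate 1 for MRPL50 (-0.15) and MRPL42 (-0.12), and without Helz-null replicate 2 for MRPL52 (-0.14). MRPL50 also lost its call without WT replicate 1 (-0.21), without WT replicate 2 (-0.19), with DESeq2, with library size only and with a GC correction (-0.13).

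Both members of this group that were called higher changed little. MRPL40 had 64.3 and 65.9 CPM in WT and 73.6 and 71.1 CPM in Helz-null cells. Its groups did not overlap, and the level was 111.2% of WT (log2FC 0.15, SE 0.041, edgeR adjusted p = 0.00228). MRPL39 had 76.7 and 78.3 CPM in WT and 85.1 and 85.7 CPM in Helz-null cells. Replicates were close and both Helz-null values were higher, at 110.2% of WT (log2FC 0.14, SE 0.038, edgeR adjusted p = 0.00212). The calls of both genes were lost without WT replicate 1 (0.13 for MRPL40, 0.12 for MRPL39), without Helz-null replicate 1 (0.13 and 0.15) and without Helz-null replicate 2 (0.18 and 0.14). MRPL40 lies on chromosome 22 from 19420068 to 19423598 and MRPL39 on chromosome 21 from 26957968 to 26979829.

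Among the 16 small subunit proteins with a bacterial counterpart, edgeR called 2 lower (12.5%, below the 15.0% of all tested genes) and 0 higher. At an unadjusted p under 0.05 it gave 7 lower and 0 higher, against 2837 lower and 2784 higher of the 11310 tested genes, and DESeq2 called 0 higher. The median log2FC was -0.062. MRPS11, a protein of the platform of the small subunit, had 66.2 and 66.8 CPM in WT and 53.0 and 50.8 CPM in Helz-null cells. The WT replicates were nearly equal, and both Helz-null values were lower. MRPS11 was at 78.0% of WT (log2FC -0.36, SE 0.044, edgeR adjusted p = 4.01e-09). MRPS10, a protein of the head of the small subunit, was lower with a log2FC of -0.16, and lost its call without Helz-null replicate 2 (-0.13), with DESeq2 and with library size only.

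The 10 small subunit proteins found only in mitochondria held 4 members called lower (40%, against 15.0% of all tested genes). Another 2 were called higher (20%, against 13.5%), and the median log2FC of the 10 was -0.037. MRPS25 had 114.8 and 105.8 CPM in WT and 94.7 and 90.1 CPM in Helz-null cells. The groups did not overlap, and the WT replicates differed by more than the Helz-null replicates. MRPS25 was at 83.8% of WT (log2FC -0.26, SE 0.038, edgeR adjusted p = 2.58e-07). The gene spans 15051118 to 15106846 of chromosome 3 (minus strand), and its 20 nearest tested genes had a median log2FC of -0.19. MRPS18B and MRPS27, a protein with pentatricopeptide repeats, were both lower with a log2FC of -0.15, and MRPS34 with -0.13. MRPS18B lost its call without Helz-null replicate 1 (-0.13), MRPS27 without WT replicate 1 (-0.092) and without Helz-null replicate 2 (-0.10), and MRPS34 without any 1 of WT replicate 1 (-0.11), Helz-null replicate 1 (-0.13) and Helz-null replicate 2 (-0.12).

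MRPS31 had the largest increase of the members. Its CPM were 34.0 and 30.8 in WT and 36.9 and 37.8 in Helz-null cells. The Helz-null replicates were close to each other, and the higher WT value was below both. MRPS31 was at 115.2% of WT (log2FC 0.20, SE 0.056, edgeR adjusted p = 0.00337). MRPS33 had 61.6 and 61.5 CPM in WT and 69.8 and 67.1 CPM in Helz-null cells. Its groups did not overlap, and its level was 111.2% of WT (log2FC 0.15, SE 0.042, edgeR adjusted p = 0.00309). MRPS31 lost its call without WT replicate 2 (0.14), Helz-null replicate 1 (0.22) or Helz-null replicate 2 (0.18). MRPS33 lost it without each library in turn, with log2FC of 0.15 without WT replicate 1 or WT replicate 2, 0.12 without Helz-null replicate 1 and 0.18 without Helz-null replicate 2. Reads of MRPS31 may be shared with the pseudogene MRPS31P5, which had 503 counts in WT replicate 1, or 23.3% of the 2160 counts of MRPS31. MRPS31 lies on chromosome 13 from 41303264 to 41345326, and MRPS33 on chromosome 7 from 140702410 to 140715028.

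**Figure D2:**
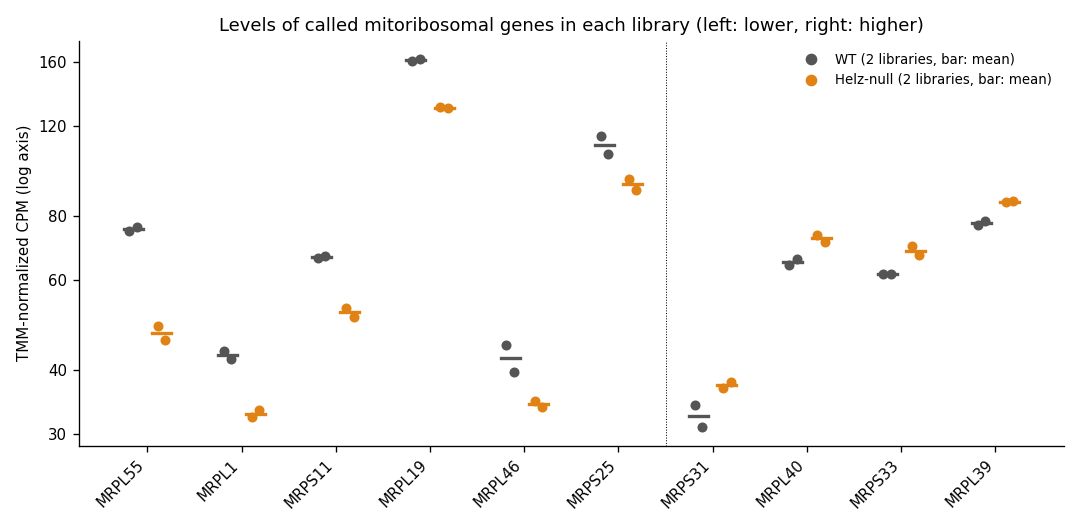
TMM-normalized CPM (log axis) of the 6 members with the largest decrease and the 4 called higher, with 1 point for each of 2 WT and 2 Helz-null libraries and a bar at each mean. The groups do not overlap for any of these genes, and the gap is widest for MRPL55.

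MRPS30 and MRPS18A carry names of the small subunit but are found in the large subunit. MRPS30 was lower with a log2FC of -0.19, and lost its call without WT replicate 1 (-0.18), without Helz-null replicate 2 (-0.15), with DESeq2 and with library size only. The 3 MRPS18 genes encode related proteins at different places of the ribosome, of which that of MRPS18C holds the place of the bacterial protein. MRPS18A had 47.2 and 44.3 CPM in WT and 45.8 and 47.1 CPM in Helz-null cells, and the groups overlapped (log2FC 0.020, edgeR adjusted p = 0.776). MRPS18B had 89.3 and 89.4 CPM in WT and 79.0 and 81.5 CPM in Helz-null cells, with no overlap (log2FC -0.15, edgeR adjusted p = 0.000837). MRPS18C had 43.2 and 46.8 CPM in WT and 43.4 and 42.6 CPM in Helz-null cells, with overlapping groups (log2FC -0.061, edgeR adjusted p = 0.347). Of the 3 genes, MRPS18B alone passed the edgeR test, none passed with DESeq2 or with library size only, and the difference between the genes was not tested. MRPS36, named here because it was in no role list, is now known as a subunit of the oxoglutarate dehydrogenase complex, and its log2FC was 0.060 (edgeR adjusted p = 0.391).

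By subunit, 14 of 50 genes for the large subunit were called lower (28%) and 2 higher (4%), with a median log2FC of -0.053. For the small subunit, 6 of 26 genes were called lower (23.1%) and 2 higher (7.69%), with a median of -0.062. Over all tested genes these shares were 15.0% and 13.5%. Summed over the 77 members, the normalized CPM were 6868 and 6819 in WT and 6499 and 6546 in Helz-null cells. The means were 6844 ± 34.6 and 6523 ± 32.9 (SD, n = 2), so the Helz-null sum was 95.3% of WT and differed from it by more than the replicates did. As a share of all counts, the members made up 0.670% and 0.667% in WT and 0.649% and 0.653% in Helz-null cells. The sum was 94.0% of WT for the large subunit proteins with a bacterial counterpart, 97.4% for those found only in mitochondria, and 95.4% and 95.2% for the corresponding groups of the small subunit.

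The levels of the members, compared per length as FPKM, spanned a wide range. The highest mean over the 4 libraries was that of MRPL12, at 234.2 FPKM. MRPL12 had 252.3 and 248.0 FPKM in WT and 214.0 and 222.3 FPKM in Helz-null cells. Both WT values were above both Helz-null values (log2FC -0.20, edgeR adjusted p = 6.88e-07). MRPL37 followed with 238.1 and 229.9 FPKM in WT and 235.3 and 232.7 FPKM in Helz-null cells, which overlapped (log2FC -0.00096, edgeR adjusted p = 0.983). MRPL37 was therefore the highest member in both Helz-null libraries and MRPL12 in both WT libraries. MRPL51 had 217.5 and 204.3 FPKM in WT and 214.0 and 222.1 FPKM in Helz-null cells, also with overlap (log2FC 0.048, edgeR adjusted p = 0.268).

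At the low end, MRPS11 had 12.7 and 12.8 FPKM in WT and 10.1 and 9.73 FPKM in Helz-null cells, and it was the lowest member in each of the 4 libraries. MRPL22, whose bacterial counterpart lines the exit tunnel, had 13.7 and 13.4 FPKM in WT and 13.3 and 13.9 FPKM in Helz-null cells (log2FC 0.0020, edgeR adjusted p = 0.980). MRPL57 had 18.2 and 17.8 FPKM in WT and 17.4 and 16.4 FPKM in Helz-null cells (log2FC -0.094, edgeR adjusted p = 0.116). The groups overlapped for MRPL22 and were separate for MRPL57, which did not pass the test. The highest member exceeded the lowest by a ratio of 19.9 and 19.4 in WT cells and of 23.2 and 23.9 in Helz-null cells. The median member was at 56.3 and 55.2 FPKM in WT and 51.6 and 50.5 FPKM in Helz-null cells, whereas the median over all tested genes lay between 12.6 and 12.7 FPKM in each library. Across the 77 members, the log2 means of the genotypes were correlated (Pearson r = 0.989, Spearman rho = 0.983). These points share their gene widths and are not independent replicates.

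**Figure D3:**
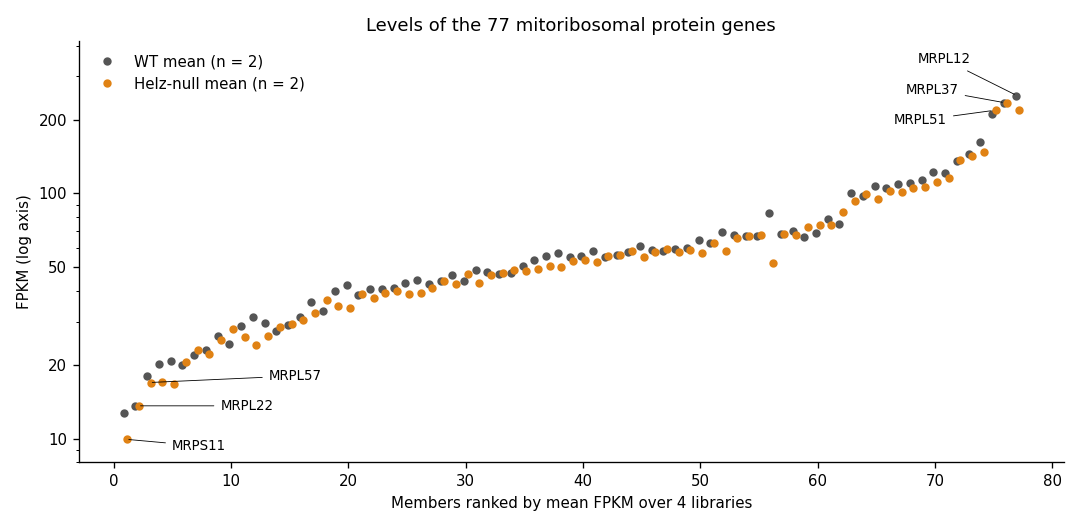
Members ranked by mean FPKM over 4 libraries (x axis) with the mean FPKM of 2 WT and of 2 Helz-null libraries (y axis, log). MRPL12, MRPL37 and MRPL51 stand at the top, and MRPS11, MRPL22 and MRPL57 at the bottom.

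Genes with overlapping annotation limit some of these values. URGCP-MRPS24, a readthrough gene chosen after its counts were seen, had 5877 counts in WT replicate 1, or 91.3% of the 6434 counts of MRPS24, so reads of the shared exons may be counted for both. MRPS24 was not called (log2FC -0.028).

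The position of the members was compared with the changes of their neighbours. For each member the median log2FC of the 20 nearest tested genes on its chromosome was taken, with positions from GENCODE on GRCh37. It lay within 0.15 of the median of all tested genes for 72 members. The other 5 were all called, in the direction of their neighbours, namely MRPL55, MRPL46, MRPS11 and MRPS25 lower and MRPS33 higher. The neighbours of MRPL46 and of MRPS11 each had a median log2FC of -0.34, and those of MRPS33 of 0.18. For MRPS31 and MRPL39, by contrast, it was -0.029 and 0.013. MRPL40 lay among genes with a median of 0.091. Among the 72 members, 16 were called lower and 3 higher, and the median log2FC was -0.053. Over all tested genes, 15.0% were called lower and 13.5% higher. Across all 77 members, log2FC and the median of the neighbours had a Pearson r of 0.67 and a Spearman rho of 0.30. Without MRPL55 these were 0.49 and 0.27, and neighbouring members share the same genes. The part of chromosomal position in the calls was not tested. The log2FC of the members had weaker correlations with mean FPKM (r = 0.12), gene width (r = -0.060) and GC content of the transcript (r = -0.12), given as descriptions across 77 genes.

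**Figure D4:**
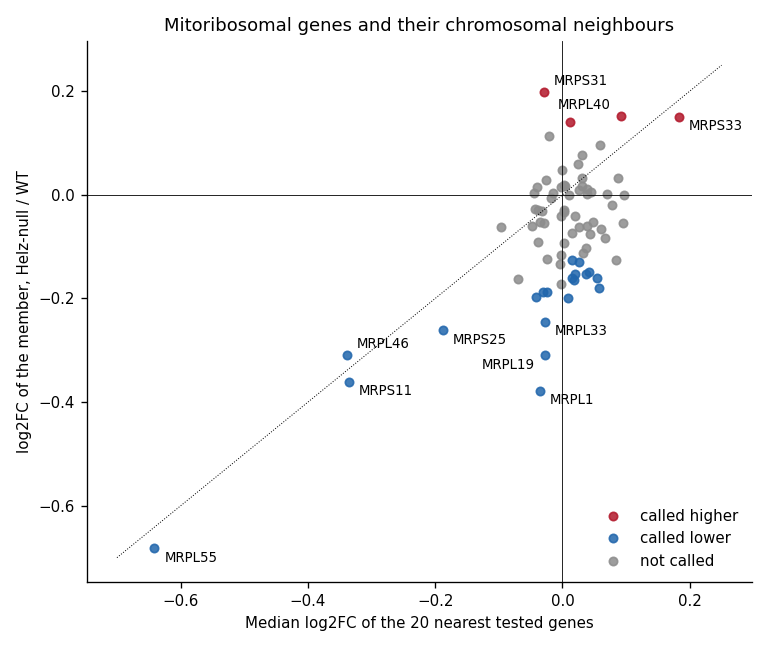
log2FC of each member (y axis) against the median log2FC of its 20 nearest tested genes (x axis), with equal values on the dotted line. MRPL55, MRPL46, MRPS11, MRPS25 and MRPS33 lie away from 0 on both axes, whereas MRPL1, MRPL19, MRPL33 and MRPS31 lie near 0 on the x axis.

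MRPL46 and MRPS11 are head to head on chromosome 15. MRPL46 runs from 89002708 to 89010621 on the minus strand and MRPS11 from 89010684 to 89024007 on the plus strand, so their starts are 63 bases apart in GENCODE on GRCh37. The distance depends on the annotation, and 319 bases lie between their starts in RefSeq on GRCh38.p14. Within 1000 bases, 16 members had such a tested partner that starts in the opposite direction, and 5 of the 16 were called, a share close to that of all members (24 of 77) and of all tested genes (3217 of 11310). For MRPL46 and MRPS11 the partner had the same call, and 0 partners had the opposite call. For the other called members the partner was not called, at a log2FC of 0.051 for EME1 beside MRPL27, 0.094 for MITD1 beside MRPL30 and -0.15 for ZNF189 beside MRPL50 (edgeR adjusted p = 0.0275). These partners were chosen for their position.

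Promoter sequences from RefSeq (GRCh38.p14) were found for 68 of the 77 members, in windows of 300 bases around the start. MRPL2, MRPL10, MRPL13, MRPL15, MRPL21, MRPL23, MRPL35, MRPS28 and MRPS36 were not matched. Motifs were searched on both strands. The ETS core CCGGAAG was present for 29 of 68 members (42.6%), against 10.3% of the 35116 promoters and 23.7% of 8515 tested genes. It was held by 7 of 20 members called lower, 3 of 4 called higher and 19 of 44 not called. The YY1 core AAGATGGCG was found for 13 members (19.1%), against 1.75% of promoters and 5.27% of tested genes, with 7 of the lower, 0 of the higher and 6 of the members not called. The NRF1 core GCATGCGC was found for 6 members (8.82%), against 3.05% and 6.94%, with 3 lower, 0 higher and 3 not called. These matches describe letters in a window and do not show binding. The 60 bases before the start are shown for 8 of the called members in which they touch no exon annotated by GENCODE, with MRPL1 and MRPL19 as the largest decreases of this kind, MRPL20, MRPS10, MRPS31 and MRPL40 for the ETS core in both directions, and MRPL17 and MRPS18B for the NRF1 core. The bases of MRPL42, MRPL50, MRPS30 and 1 of 2 promoters of MRPS33 also touch no exon, hold none of these motifs and are not shown. Capitals mark a motif or its reverse complement, and each sequence runs 5′ to 3′ on the strand of its gene.
MRPL1: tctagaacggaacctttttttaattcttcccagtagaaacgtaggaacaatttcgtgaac
MRPL19: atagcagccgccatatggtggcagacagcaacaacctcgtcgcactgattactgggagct
MRPL20: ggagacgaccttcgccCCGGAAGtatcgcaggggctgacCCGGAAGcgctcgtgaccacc
MRPS10: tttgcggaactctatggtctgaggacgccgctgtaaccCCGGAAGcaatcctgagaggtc
MRPL17: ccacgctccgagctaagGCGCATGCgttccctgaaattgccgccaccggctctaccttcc
MRPS18B: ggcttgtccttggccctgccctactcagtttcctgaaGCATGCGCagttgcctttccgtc
MRPS31: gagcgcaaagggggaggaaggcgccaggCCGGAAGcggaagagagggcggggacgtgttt
MRPL40: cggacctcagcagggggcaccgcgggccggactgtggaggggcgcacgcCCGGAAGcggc
By position, the printed bases are chr4:77862770-77862829 on the plus strand for MRPL1, chr2:75646723-75646782 on the plus strand for MRPL19, chr1:1407294-1407353 on the minus strand for MRPL20, chr6:42217862-42217921 on the minus strand for MRPS10, chr11:6683341-6683400 on the minus strand for MRPL17, chr6:30617780-30617839 on the plus strand for MRPS18B, chr13:40771191-40771250 on the minus strand for MRPS31 and chr22:19432485-19432544 on the plus strand for MRPL40.

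Genes that act with the mitochondrial ribosome were compared by lists. The 6 mitoribosomal proteins with other symbols had 0 genes called by edgeR or DESeq2. In edgeR 15.0% of all tested genes were called lower and 13.5% higher, and 6 genes are too few to compare with these shares. At an unadjusted p under 0.05 edgeR gave 2 lower and 0 higher, against 2837 lower and 2784 higher of the 11310 tested genes. The median log2FC of this list was -0.061. Of 12 translation factors, 2 were called lower (16.7%, near the 15.0% of all tested genes) and 1 higher (8.33%, against 13.5%). Their median log2FC was -0.015. MRRF, the ribosome recycling factor, had 48.3 and 45.8 CPM in WT and 36.4 and 39.2 CPM in Helz-null cells (log2FC -0.31, SE 0.051, edgeR adjusted p = 2.39e-06), among neighbours with a median of 0.045. OXA1L, which inserts new proteins into the inner membrane, had a log2FC of -0.13, and GFM2, which acts in recycling, of 0.12. In this list the count of lower genes was 1 without Helz-null replicate 1 or Helz-null replicate 2, and the count of higher genes was 0 without WT replicate 1, Helz-null replicate 1 or Helz-null replicate 2. DESeq2 called 1 lower and 0 higher, and library size only or the upper quartile gave 1 lower and 1 higher.

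Assembly factors of the mitoribosome included 4 of 24 genes called lower (16.7%, near the 15.0% of all tested genes). Another 2 were called higher (8.33%, against 13.5% of all tested genes), and the median log2FC was -0.026. NGRN, which is needed for the stability of the large ribosomal RNA, had 164.2 and 158.2 CPM in WT and 114.6 and 114.2 CPM in Helz-null cells (log2FC -0.50, SE 0.033, edgeR adjusted p = 1.28e-16). It lies in a region with a median log2FC of -0.34. RBFA, which acts on the small subunit, had a log2FC of 0.37 among neighbours at 0.58, and MPV17L2, an inner membrane protein, had a log2FC of 0.23. Without Helz-null replicate 1 the count of lower genes in this list was 2. The counts were 3 lower and 5 higher with library size only and 3 and 4 with the upper quartile, which turned the balance of all tested genes too, 3 and 3 with RLE factors, and 2 and 2 with DESeq2.

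Genes for transcription and processing of mitochondrial RNA had 3 of 17 called lower and 3 higher (17.6% each), near the 15.0% and 13.5% of all tested genes. Their median log2FC was -0.047. TFAM, which packages mitochondrial DNA and starts its transcription, had 243.7 and 252.0 CPM in WT and 190.3 and 195.1 CPM in Helz-null cells (log2FC -0.36, SE 0.030, edgeR adjusted p = 1.88e-13), among neighbours with a median of 0.030. POLRMT, the mitochondrial RNA polymerase, had a log2FC of 0.24, and FASTK of 0.23 with a neighbour median of 0.28. Among 22 genes for mitochondrial aminoacyl-tRNA synthesis, 5 were called lower (22.7%, against 15.0% of all tested genes) and 1 higher (4.55%, against 13.5%). The median log2FC of the 22 was -0.088, against -0.055 for the members. AARS2, the alanyl-tRNA synthetase, had 70.3 and 72.4 CPM in WT and 50.3 and 47.8 CPM in Helz-null cells (log2FC -0.54, SE 0.044, edgeR adjusted p = 5.88e-14), among neighbours with a median of 0.011. LARS2 and IARS2 were lower, each with a log2FC of -0.31, among neighbours at -0.35 and -0.29. In this list the count of lower genes was 3 without Helz-null replicate 1 or Helz-null replicate 2. The count of higher genes was 3 without WT replicate 2, 2 without Helz-null replicate 1 and 0 without Helz-null replicate 2. With library size only, 3 were called lower and 3 higher, with the upper quartile 4 and 3, and with DESeq2 3 and 1.

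Larger lists were set beside the members for scale. Cytosolic ribosomal proteins had 52 of 80 tested genes called lower (65%, against 15.0% of all tested genes). Only 1 was called higher (1.25%, against 13.5%), and the median log2FC was -0.12. RPLP1 (log2FC -0.54), RPSA (-0.53) and RPL4 (-0.51) had the largest changes of that list, among neighbours with medians of -0.38, -0.23 and -0.27. Without Helz-null replicate 1 the count of lower genes was 24. The nuclear subunits of oxidative phosphorylation work beside the products of mitochondrial translation. Of their 77 tested genes, 12 were called lower (15.6%, near the 15.0% of all tested genes). The 3 called higher made up 3.90%, against 13.5% of all tested genes, and the median log2FC was -0.023. COX5A was lower with a log2FC of -0.41, UQCRC1 with -0.32 and COX8A with -0.20, among neighbours with medians of -0.38, -0.26 and 0.024. Without Helz-null replicate 1, 6 were called lower, and the count of higher genes was 5 without WT replicate 2 and 0 without Helz-null replicate 2. Library size only gave 5 lower and 5 higher, and DESeq2 gave 6 and 1. Differences between the lists were not tested. The lists also differed in level, with a median FPKM of 1079 for cytosolic ribosomal proteins and 108.1 for oxidative phosphorylation. It was 54.0 for the members and 12.7 for all tested genes. A small change is easier to call at a high level, so the shares called are not on an equal footing.

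**Figure D5:**
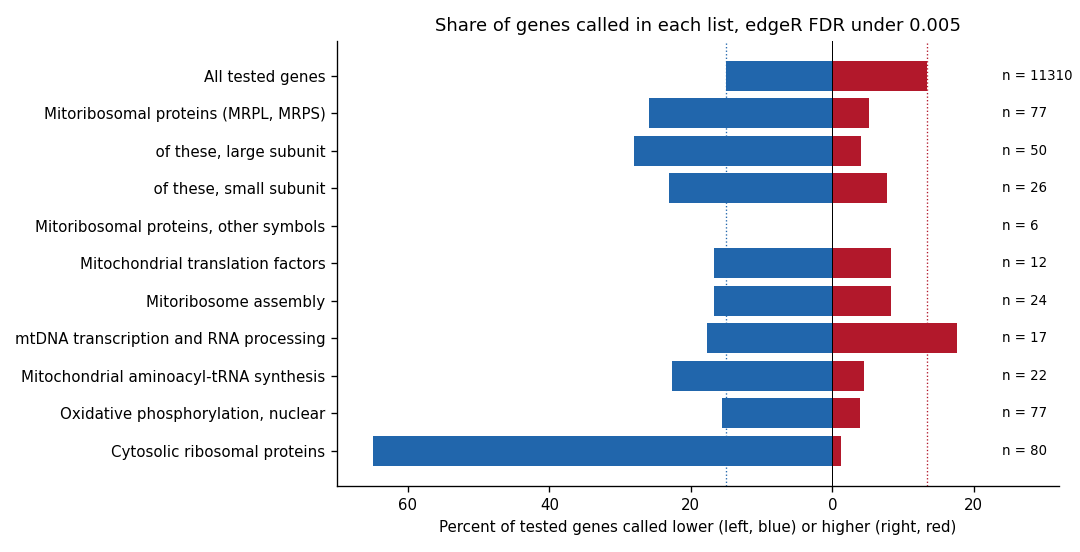
Percent of tested genes called lower (left) and higher (right) in Helz-null cells for all tested genes, the members, their subunits and 7 other lists, with dotted lines at the shares of all tested genes. Members are at 26.0% lower and 5.19% higher, and cytosolic ribosomal proteins have the largest share called lower, at 65%. The lists differ in level, and small changes are easier to call in genes with high levels.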

How the data were processed

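After filtering ribosomal RNA reads with Bowtie2 and aligning read pairs to hg19 with TopHat2, the authors made counts per gene with QuasR, which they deposited without normalization beside a gene width in bases. Versions, gene annotation, use of strand and whether both mates were counted are not given in the sources used here, so overlapping and antisense genes are uncertain. A deposited table of the authors' log2 fold changes, p-values, FDR and log2 CPM was not used.

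Tests used edgeR 4.0.16 and limma 3.58.1 under R 4.3.3 (scaling by TMM, glmQLFit and glmQLFTest, genotype as the only term), over 11310 genes with a mean above 2 FPKM computed from counts and widths. P-values were adjusted over all of these genes by the Benjamini-Hochberg method and called under 0.005. They measure the spread between the libraries. TMM factors lay between 0.988 and 1.01, and CPM use the summed counts of the tested genes. Replicates differed by more than counting noise (chi-square per degree of freedom 4.11 in WT and 2.96 in Helz-null cells, or 2.05 and 1.48 with counts divided by 2, since the totals leave it possible that both mates of each pair were counted), and the common biological coefficient of variation was 2.61%. An SE is the absolute log2FC divided by the square root of the F statistic. Steps were tested on simulated data. At a simulated absolute log2FC of 0.25, 74 of 100 changed genes were called, and at 0.5, 90 of 100, with 0 in the wrong direction. Of the unchanged genes 0 were called. Changes of the size seen in most members can therefore be missed.

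Gene positions came from GENCODE on GRCh37, with 22723 genes matched by symbol and 1243 by an older symbol, and promoters from RefSeq on GRCh38.p14. Tables and plots used Python 3.11.15, numpy 2.4.6, pandas 2.3.3 and matplotlib 3.10.9. Alternatives were DESeq2 1.42.0, another threshold, a test against a fold change of 1.2, other scalings and gene filters, a replicate block, each library left out, counts divided by 2, thinned libraries, corrections for gene length and GC content, and neighbouring genes.

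All called members were named, with values in every library for the 6 lower and 4 higher with the largest absolute log2FC. The 3 members with the highest and the 3 with the lowest mean FPKM, the MRPS18 genes, HELZ, and in each other list called genes up to the 3 with the largest absolute log2FC were also named. The members and lists were chosen with earlier results of these data known.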

Additional observations from a re-analysis of the deposited data

How the results depend on the processing

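With edgeR, 20 members were called lower and 4 higher, and the median log2FC was -0.055. DESeq2 called 12 lower and 0 higher, with 5 higher at an unadjusted p under 0.05, and it called 1279 lower and 1087 higher over all tested genes. The edgeR test against a fold change of 1.2 called 1 lower, MRPL55, and 0 higher, with 0 higher at an unadjusted p under 0.05. Over all tested genes that test called 309 lower and 206 higher. Library size only gave 12 lower and a median of -0.022 beside 0.031 for all genes, and the upper quartile a median of -0.041 beside 0.012. The members' median minus that of all genes was -0.053 in each scaling. A scaling factor shifts all genes by nearly the same amount, so this difference could not move. The number called higher was 2 with the gene filter of edgeR and 2 with libraries thinned to the smallest. With each library left out in turn, 11 to 20 members were called lower and 0 to 3 higher, and the median was between -0.061 and -0.049. In each of these fits 1 group had 1 library, assumed to vary like the other group, and fewer of all tested genes were called. The causes of these differences were not tested. An adjusted p under 0.05 gave 27 lower and 5 higher, and a GC correction, with values for 95.8% of the tested genes, gave 24 and 4. HELZ kept its direction and its call in all 18 alternatives, with a log2FC of -1.47 to -1.41. Among the 24 called members, 0 changed sign under these 18 alternatives, which do not include the neighbouring genes. The looser threshold and the test against a fold change of 1.2 reuse the main log2FC, so no sign could change there. The looser threshold could not remove the call of HELZ either. After subtracting the median of the 20 nearest tested genes, the sign turned for MRPL46 (0.030) and MRPS33 (-0.033). Little of the log2FC was left for MRPL55 (-0.041), MRPS11 (-0.025) and MRPS25 (-0.074). More was left for MRPL1 (-0.34), MRPL19 (-0.28) and MRPL12 (-0.16). The part of the region in these changes was not tested.

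With the replicate number as a replicate block, 20 members were called lower and 4 higher, and the median was -0.056. The labels do not say that the numbers pair the libraries, and the differences between replicates had a correlation of 0.020 between WT and Helz-null over 11310 genes. In this block, 1 list count moved by more than 1.5 times, that of higher aminoacyl-tRNA synthesis genes, from 1 to 2.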
